A study of Mus musculus with 8 samples.

Results

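The cytosolic ribosomal protein genes encode the protein components of the ribosome that works in the cytoplasm. They were taken by symbol: Rplp0, Rplp1, Rplp2, Rpsa, or Rpl or Rps followed by a number and at most 1 letter (A, X or L), read from probe sets annotated to a single gene. Ribosomal S6 kinases and pseudogenes were left out. The rule found 49 genes among 18336 genes that single-gene probe sets name on either array type, and 30 of the 49 were on both. On U74Av2 arrays 47 probe sets stood for 33 of these genes, and on MOE430v2 arrays 100 probe sets stood for 46. A probe set is a group of short probes that together measure 1 transcript.

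Total RNA came from 7.5-day mouse embryos of both sexes, from which the extra-embryonic part had been cut away. The wild-type group was 2 pools, of 53 and 50 ICR embryos. The Foxa2 null group was 2 pools, of 53 and 48 embryos grown from Foxa2 null embryonic stem cells by tetraploid complementation, in which tetraploid wild-type host cells supply the extra-embryonic tissues and the visceral endoderm. Each of the 4 extracts was hybridized to 1 array of each type, so the 8 arrays measure 2 pools per genotype. By the study's methods, the host's visceral endoderm stayed on the Foxa2 null embryos, and by its staging wild-type pool 2 was the youngest pool. Labels of mutant arrays also give ICR as the strain, and origin and genotype cannot be told apart. In pooled whole tissue, fewer cells of a type and less RNA per cell cannot be told apart either.

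A ribosome has a small subunit, which reads the messenger RNA and holds the Rps proteins, and a large subunit, which joins amino acids and holds the Rpl proteins. Rplp0, Rplp1 and Rplp2 form the stalk that recruits translation factors. The genes are spread over the genome, are transcribed at high rates in dividing cells, and produce mRNAs that begin with a run of pyrimidines, the 5′ terminal oligopyrimidine (TOP) tract, through which growth signals control their translation. They have many processed pseudogenes, so that probes can match transcripts of more than 1 locus. Foxa2 is a forkhead transcription factor required for the node, axial mesendoderm and definitive endoderm.

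Promoter sequence was available for 42 of the 49 genes in RefSeq annotation of GRCm38.p6, as 250 bases before and 50 bases after the annotated start. Of these 42 promoters, counting the one listed first for each gene, 20 (47.6%) held CCGGAAG, a core of sites for ETS-family factors such as GABP, on either strand, against 9.12% of the first listed promoters of 27025 genes. CTTTCC, a pyrimidine hexamer, was found in 19 (45.2%) against 26.3%, GGGCGG, the GC box, in 23 (54.8%) against 35.9%, and AAGATGG, a core of YY1 sites, in 7 (16.7%) against 6.48%. The annotated start was a C followed by at least 4 pyrimidines in 8 of 42 genes (19%), against 2.49% of all first listed promoters. The promoters of 4 members are printed because results below turn on them or because they show the TOP-type start. Each covers 100 bases before and 30 after the start, 5′ to 3′ on the strand of the gene. Capitals mark the motifs named here on the printed strand, and in Rps6 and Rpl38 also the pyrimidine run at the start, which in Rpl38 overlaps CTTTCC. A match is a description of letters, and binding was not measured.
Rpl22, chr4:152325626-152325755, plus strand (first of 2 listed): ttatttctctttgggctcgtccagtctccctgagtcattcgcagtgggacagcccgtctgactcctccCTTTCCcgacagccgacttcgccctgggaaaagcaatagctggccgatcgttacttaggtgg
Rplp0, chr5:115559367-115559496, plus strand: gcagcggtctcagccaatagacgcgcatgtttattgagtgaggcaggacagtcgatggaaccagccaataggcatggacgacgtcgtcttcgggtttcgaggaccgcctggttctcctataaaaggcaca
Rps6, chr4:86857338-86857467, minus strand: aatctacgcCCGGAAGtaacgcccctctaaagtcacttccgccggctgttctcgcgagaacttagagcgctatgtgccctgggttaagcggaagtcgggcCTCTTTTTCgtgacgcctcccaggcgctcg
Rpl38, chr11:114668480-114668609, plus strand: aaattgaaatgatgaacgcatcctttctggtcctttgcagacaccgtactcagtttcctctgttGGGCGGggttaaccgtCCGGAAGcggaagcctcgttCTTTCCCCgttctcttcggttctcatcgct

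The authors deposited MAS5 signals, the intensities that the array software assigns to probe sets, before any log. Levels below are log2 signals, as scaled by the authors on U74Av2 and after cyclic loess normalization of the 4 arrays on MOE430v2, and differences are Foxa2 null minus wild-type on that scale. Foxa2 itself was lower in both Foxa2 null pools than in either wild-type pool, with differences of -1.25 on U74Av2 (adjusted p = 0.13 by limma) and -0.88 on MOE430v2 (adjusted p = 0.141), and where its probe sets lie relative to the deleted part was not examined. The 3′ to 5′ signal ratio of Gapdh, a measure of RNA integrity, was 0.893 to 0.940 over the U74Av2 arrays and 0.789 to 0.848 over the MOE430v2 arrays. Of 10 epiblast markers listed, 6 on U74Av2 and 9 on MOE430v2 entered the comparison, and the summed signal of the list was 2508 to 3740 and 28249 to 41972. Brachyury (T) was listed but entered on neither array type, and the reason was not examined. The study reported T as lower in Foxa2 null embryos on both array types, so the counts here lack a marker that it found lower. Of the markers entered, 5 of 6 and 6 of 9 were above 0, with medians of 0.54 and 0.05, and none passed the threshold. Over all genes tested, 11 of 6410 passed as lower and 3 as higher on U74Av2, and 40 and 25 of 14180 on MOE430v2. Without overlap of the genotypes, 3 epiblast markers (50%) and 4 (44.4%) were higher, against 19.2% and 21.7% of all genes. Lower ones numbered 1 (16.7%) and 1 (11.1%), against 21.1% and 23.7%. The summed signal of visceral endoderm markers was 9292 and 9018 in the wild-type pools against 13799 and 9252 in the Foxa2 null pools on U74Av2, and 148652 and 168543 against 211408 and 171101 on MOE430v2. Of these markers 12 of 14 and 14 of 16 genes tested were above 0, with medians of 0.37 and 0.23, none passed the threshold, and none was at a signal of 0. Without overlap, 6 (42.9%) and 7 (43.8%) were higher and 1 (7.14%) and 0 lower, beside the same shares of all genes. Primitive blood markers summed to 1130 and 3578 in the wild-type pools against 4111 and 888 in the Foxa2 null pools on MOE430v2. On U74Av2 the sums were 421.2 and 667.8 against 672.5 and 422.1. Of 10 listed, 8 on U74Av2 and 5 on MOE430v2 were tested, at low median log2 signals of 5.54 and 7.49. Of those tested 4 and 4 were above 0, with medians of 0.01 and 0.38, and none passed the threshold. The part of these markers in the differences of ribosomal protein probe sets was not tested.

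As a family, the ribosomal protein probe sets differed little between genotypes. The dimmest 30% of probe sets by mean signal over the 4 arrays were not tested, which left 35 ribosomal protein probe sets for 28 genes on U74Av2 and 94 for 44 genes on MOE430v2. In all 45 of the 49 genes were tested, and Rpl32, Rpl35a, Rpl3l and Rps16 were not, having only probe sets below that filter. The median difference was -0.03 on U74Av2, with the middle of the distribution between -0.06 and 0.10 (quartiles), and 0.01 on MOE430v2, between -0.05 and 0.07. The sign of the U74Av2 median turned with the scaling, to 0.04 after cyclic loess, 0.08 after quantile normalization and 0.01 after median centring. The corresponding medians over all 8695 and 31526 probe sets tested were -0.02 and 0.00. On U74Av2 19 of 35 members (54.3%) were within 0.1 of 0, against 27.5% of all probe sets, and on MOE430v2 64 of 94 (68.1%), against 23.0%. The median size of the difference, without its sign, was 0.07 for members on both array types, against 0.20 and 0.25.

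**Figure D1:**
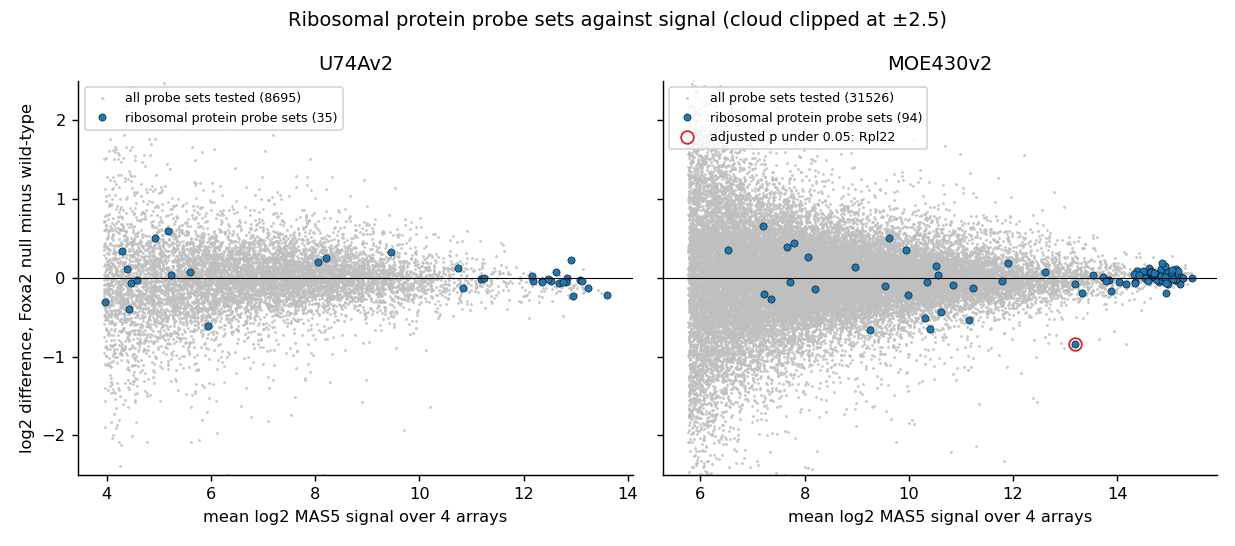
Difference between Foxa2 null and wild-type (log2, vertical axis, cut at ±2.5) against mean log2 MAS5 signal over the 4 arrays of a type (horizontal axis), for all probe sets tested (grey) and ribosomal protein probe sets (blue), with the probe set past the threshold ringed in red. Most ribosomal protein probe sets lie at the bright end close to 0, 22 of 35 above the 90th signal percentile on U74Av2 and 72 of 94 on MOE430v2.

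Limma's test, at an adjusted p below 0.05 after Benjamini-Hochberg correction over all probe sets of an array type, called 1 of the 94 members lower on MOE430v2 (1.06%), an Rpl22 probe set, where 0.244% of all probe sets were called lower. It called 0 of 94 higher (0.19% of all probe sets), and on U74Av2 0 of 35 lower and 0 higher (0.173% and 0.104% of all). At an unadjusted p under 0.05 there were 0 members in either direction on U74Av2 (5.01% of all probe sets in each direction), and on MOE430v2 6 lower (6.38%, against 6.07% of all) and 2 higher (2.13%, against 6.03%). The genotypes did not overlap, with both Foxa2 null pools below both wild-type pools, in 5 U74Av2 members (14.3%, against 21.4% of all) and 12 MOE430v2 members (12.8%, against 21.8%). Both Foxa2 null pools were above in 6 (17.1%, against 18.6%) and 19 (20.2%, against 21.5%). On MOE430v2 signals as scaled, 7 of those 12 and 5 of those 19 remained without overlap in the same direction, and on U74Av2 after cyclic loess 4 of the 5 and 5 of the 6 did. A difference beyond 0.3 in either direction was found in 7 U74Av2 members (20%, against 34.8% of all) and 12 MOE430v2 members (12.8%, against 43.7%).

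When the 2 measurements of each extract were averaged for the 27 genes tested on both array types, 0 genes passed the threshold by limma in either direction, where 1.06% of 5933 genes were called lower and 1.35% higher. At an unadjusted p under 0.05, 1 gene was lower, Rplp0, and 1 was higher, Rps4l (3.7% each, against 7.84% and 7.42% of all genes). The median over the 27 genes was -0.02, and 19 of them (70.4%) were within 0.1 of 0, against 34.1% of all genes. In 22 of the 27 (81.5%) the 95% interval of the difference lay inside ±0.5, against 45% of all genes. On single array types the interval was inside ±0.5 for 60% of U74Av2 members and 79.8% of MOE430v2 members, against 16.3% and 17.1% of all probe sets. Most members are bright, and the comparison was narrower at like signal. Above the 90th signal percentile the shares were 95.5% and 97.2% of members, against 62.5% and 76.8% of all probe sets that bright. Among dimmer ones they were 0% and 22.7%, against 11.1% and 10.5%.

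**Figure D2:**
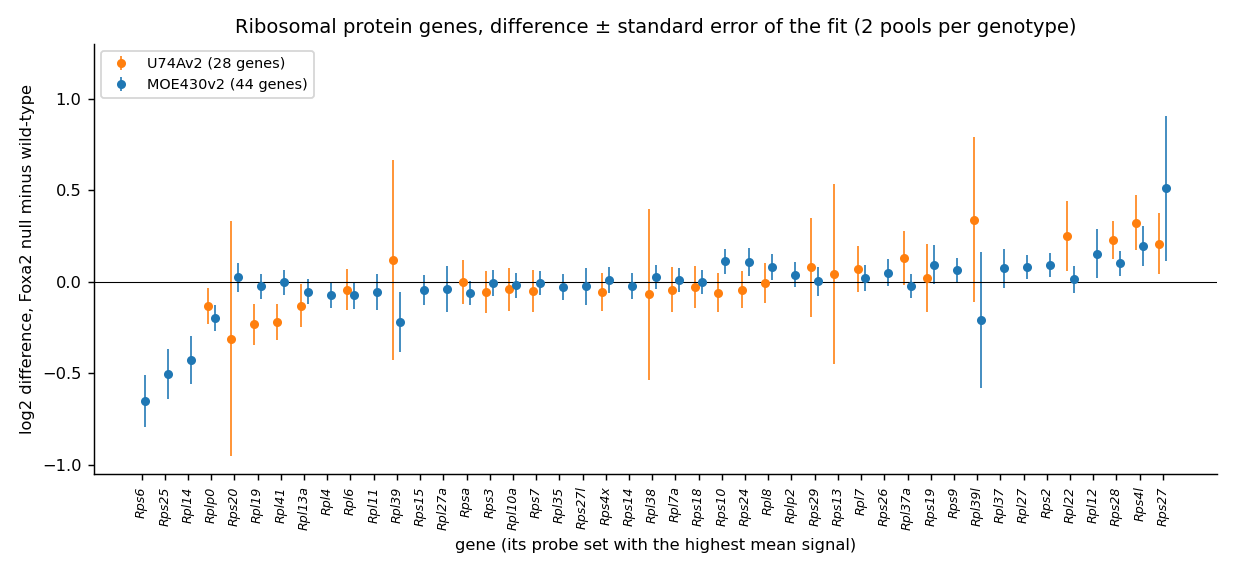
Difference between Foxa2 null and wild-type (log2) with the standard error of the fit for each ribosomal protein gene tested, by its brightest probe set, on U74Av2 (orange, 28 genes) and MOE430v2 (blue, 44 genes). Genes are in order of their differences, and apart from Rps6, Rps25 and Rpl14 at the left and Rps27 at the right, the MOE430v2 values lie between -0.22 and 0.20.

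Both subunits had medians near 0. The 52 small subunit probe sets tested on MOE430v2 had a median of 0.01 and the 40 large subunit probe sets a median of -0.01, with 34 and 29 of them within 0.1 of 0. On U74Av2 18 small subunit probe sets had a median of -0.03 and 16 large subunit probe sets a median of -0.01. Of the small subunit probe sets on MOE430v2, 14 (26.9%) were higher without overlap of the genotypes and 5 (9.62%) were lower, and of the large subunit probe sets 5 (12.5%) were higher and 6 (15%) were lower, against 21.5% and 21.8% of all probe sets. Of the 14, 4 remained higher without overlap on signals as scaled. On U74Av2 3 small subunit probe sets were higher and 1 lower, and 3 large subunit probe sets were higher and 3 lower.

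Rplp0, which anchors the stalk to the large subunit, was lower in the Foxa2 null pools on both array types. On U74Av2 arrays it read 13.31 and 13.30 in wild-type pools 1 and 2, against 13.16 and 13.18 in Foxa2 null pools 1 and 2. On MOE430v2 it read 14.99 and 15.07 in the wild-type pools against 14.79 and 14.88 in the Foxa2 null pools. The genotypes did not overlap on either array type at these settings, but they overlapped on U74Av2 after cyclic loess (-0.05) and on MOE430v2 as scaled (-0.21). The difference of Rplp0 was -0.13 (SE 0.10, adjusted p = 0.731 by limma) on U74Av2 and -0.20 (SE 0.07, adjusted p = 0.316) on MOE430v2, and -0.17 (SE 0.07, adjusted p = 0.325) with the array types averaged, so it did not pass. Its partner Rplp2 was measured on MOE430v2 alone, at 14.94 and 15.03 in wild-type and 15.01 and 15.03 in Foxa2 null pools, a difference of 0.04 with overlapping genotypes. Rplp1 had no probe set of its own.

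Rpl22, an RNA-binding protein of the large subunit that is needed for development of T lymphocytes, was the member whose probe sets differed most. At the probe set 1416603_at the log2 signal was 13.72 and 13.52 in wild-type pools 1 and 2 and 12.82 and 12.73 in Foxa2 null pools 1 and 2. Both Foxa2 null pools lay far below both wild-type pools, and the probe set fell by 0.85 (SE 0.10, 95% interval -1.06 to -0.63, adjusted p = 0.0107 by limma). The brightest Rpl22 probe set of the same arrays, 1453118_s_at, read 14.57 and 14.67 in wild-type and 14.62 and 14.64 in Foxa2 null pools. Its difference was 0.01 (95% interval -0.15 to 0.18) and the Foxa2 null values lay between the wild-type values. The remaining one, 1448398_s_at, read 11.50, 11.08, 11.21 and 11.13 in the same order, with a difference of -0.12 and overlapping genotypes.

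On U74Av2 Rpl22 went the other way without passing the threshold. The probe set 92857_at read 8.32 and 7.86 in wild-type and 8.35 and 8.33 in Foxa2 null pools, a difference of 0.25 (95% interval -0.19 to 0.69). The dimmer 92856_at read 4.64 and 4.69 in wild-type and 4.85 and 5.50 in Foxa2 null pools, a difference of 0.51 (95% interval -0.36 to 1.38). Neither U74Av2 probe set had overlapping genotypes, although wild-type pool 1 and both Foxa2 null pools were nearly equal at 92857_at, and at that probe set they overlapped after cyclic loess (0.23). Which part of the Rpl22 transcript each probe set reads was not analysed here, and a change of the whole gene cannot be told apart from a change of 1 transcript form or of a related locus. Averaged over the array types by its brightest probe sets, Rpl22 was at 0.13 (adjusted p = 0.603 by limma). The call on 1416603_at did not hold when wild-type pool 1 was left out (-0.75, adjusted p = 0.0567 by limma) or when the variance was not allowed to follow the signal (adjusted p = 0.455). Rpl22l1, a paralog outside the symbol rule, was at -0.10 on MOE430v2 (adjusted p = 0.68).

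**Figure D3:**
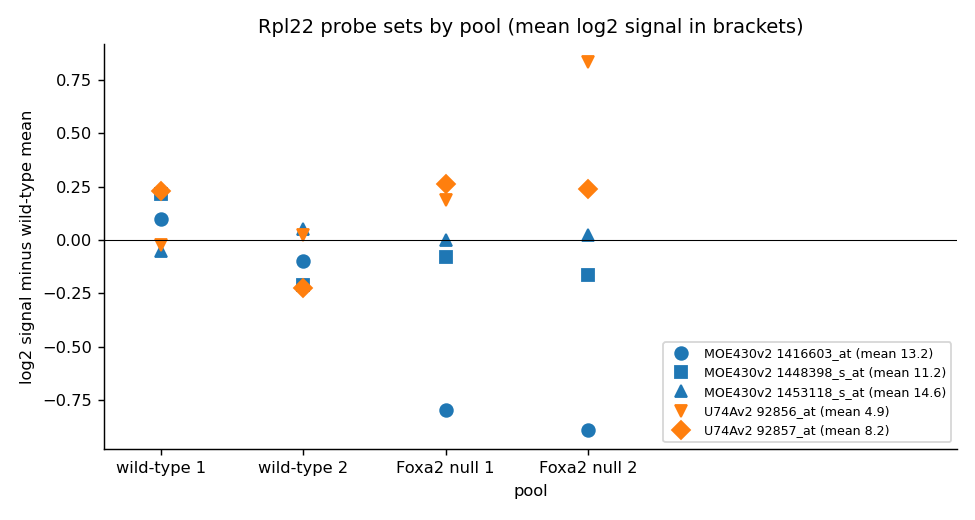
Log2 signal of each of the 5 Rpl22 probe sets in the 4 pools, minus the wild-type mean of that probe set, with MOE430v2 in blue and U74Av2 in orange and the mean signal of each in brackets. Only 1416603_at has both Foxa2 null pools near -0.8 to -0.9, while 1453118_s_at stays close to 0 and the U74Av2 probe sets lie above 0 in the Foxa2 null pools.

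Other large decreases on MOE430v2 without overlap of the genotypes, in Rps24, Rps6, Rps25 and Rpl14, did not pass the threshold. Their probe sets lay between the 68.3 and 86.0 percentiles of signal over all probe sets tested, below most members. Rps6, the small subunit protein that S6 kinase phosphorylates, read 10.76 and 10.71 in wild-type and 9.97 and 10.19 in Foxa2 null pools at 1416142_at. That gave a difference of -0.65 (SE 0.14, 95% interval -0.97 to -0.33, adjusted p = 0.0975 by limma). A further Rps6 probe set, 1453466_at, was below the filter at 4.31 and 4.12 in wild-type and 6.57 and 6.51 in Foxa2 null pools, opposite in direction and untested. Rps6 had no single-gene probe set on U74Av2.

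Rps25, a small subunit protein used in initiation at viral internal ribosome entry sites, read 10.56 in each wild-type pool and 10.05 ± 0.07 (SD, n = 2 pools) in Foxa2 null, a difference of -0.51 (adjusted p = 0.181 by limma). Rpl14, of the large subunit, read 10.78 and 10.90 in wild-type and 10.37 and 10.45 in Foxa2 null pools, a difference of -0.43 (adjusted p = 0.232). Genotypes were separated in both, and each gene was measured by 1 probe set on MOE430v2 and none on U74Av2.

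Rps24, mutated in some patients with Diamond-Blackfan anaemia, had 6 MOE430v2 probe sets, and they ranged from -0.66 to 0.11. The lowest, 1455195_at, read 9.34 and 9.81 in wild-type and 8.90 and 8.93 in Foxa2 null pools (adjusted p = 0.247 by limma), without overlap. The brightest, 1436064_x_at, read 14.76 and 14.79 in wild-type and 14.81 and 14.96 in Foxa2 null pools, a difference of 0.11 with the genotypes separated in the opposite direction, though not on signals as scaled. On U74Av2 the bright Rps24 probe set was at -0.04. Rps18 showed the reverse arrangement on MOE430v2. Its dim probe sets 1421838_at, 1421837_at and 1450390_x_at were at 0.66, 0.39 and 0.26, whereas the bright ones lay between 0.00 and 0.03. At 1421838_at the signal was 6.81 and 6.95 in wild-type and 7.52 and 7.56 in Foxa2 null pools, with an adjusted p of 0.511 by limma. Rpl37a 1416218_x_at (-0.53) rested on 1 pool, since its signal was 11.38 and 11.48 in wild-type and 11.39 and 10.40 in Foxa2 null pools, and the brighter Rpl37a probe sets were at -0.02 and 0.02.

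Rps28, of the small subunit, was higher at all 3 of its MOE430v2 probe sets, at 0.10, 0.15 and 0.18, each without overlap of the genotypes after cyclic loess and none past the threshold. On signals as scaled the genotypes overlapped at all 3. The highest, 1454778_x_at, read 14.74 and 14.78 in wild-type and 14.89 and 15.01 in Foxa2 null pools (adjusted p = 0.362 by limma). On U74Av2 Rps28 was at 0.23 for 98085_f_at (12.74 and 12.85 in wild-type against 13.00 and 13.04 in Foxa2 null pools), at -0.01 for 100758_at and at -0.61 for the dim 98086_r_at (6.37 and 6.15 in wild-type against 5.90 and 5.39 in Foxa2 null pools). The U74Av2 probe sets of Rps28 therefore disagreed in direction. Rps9 was at 0.35 for 1426958_at (adjusted p = 0.392), at 0.06 for its bright probe set and at -0.05 for the third. Rps27 was at 0.51 on MOE430v2, where the wild-type pools themselves read 10.11 and 8.62 against 9.68 and 10.07 in Foxa2 null pools, and at 0.21 on U74Av2.

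On U74Av2 the largest decreases without overlap, after that of 98086_r_at, were small and in bright probe sets. Rpl19 97483_at read 13.14 and 12.98 in wild-type and 12.89 and 12.76 in Foxa2 null pools, a difference of -0.23 (adjusted p = 0.545 by limma). The dim Rpl19 probe set 161961_at went the other way, at 0.59 with overlapping genotypes. It read 3.52 and 6.22 in wild-type and 5.78 and 5.15 in Foxa2 null pools. Its spread between pools of a genotype was the largest of any member (residual SD 1.39). Rpl41 read 13.68 and 13.76 in wild-type and 13.51 and 13.49 in Foxa2 null pools, a difference of -0.22 (adjusted p = 0.505). On MOE430v2 the brightest probe sets of Rpl19 and Rpl41 were at -0.03 and 0.00, with overlapping genotypes. Rpl13a, a large subunit protein that also takes part in interferon-dependent silencing of mRNAs, was at -0.13 on U74Av2 and between -0.19 and -0.05 at its 4 MOE430v2 probe sets, and the genotypes were separated at all but 1417608_a_at of these 5. On MOE430v2 signals as scaled, 1433928_a_at alone of the 4 kept that separation. After Rpl19 161961_at, the largest residual SDs on U74Av2 were in the dim Rps13 93027_r_at (0.04) and Rps20 94039_at (-0.31), both with overlapping genotypes. On MOE430v2 the dim Rps20 1450417_a_at, also among the largest, was at -0.27 with overlap, and the brightest Rps20 probe set at 0.02.

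Rpl11, which binds Mdm2 when ribosome assembly is disturbed, was at -0.06 on MOE430v2 (14.38 and 14.36 in wild-type against 14.47 and 14.17 in Foxa2 null pools). Rpl38, whose loss in the mouse alters the axial skeleton, was at 0.03 on MOE430v2 (15.01 and 15.08 in wild-type against 15.06 and 15.09 in Foxa2 null pools), and its U74Av2 probe set was dim and at -0.07. In both genes the genotypes overlapped. Rps7 was at -0.01 on MOE430v2 and -0.05 on U74Av2. Rpsa, the small subunit protein also known as the laminin receptor, was at -0.06 and 0.00. Rps19, the gene most often mutated in Diamond-Blackfan anaemia, was at 0.09 and 0.02, and its wild-type pools read 11.86 and 12.45 on U74Av2, further apart than the Foxa2 null pools at 12.06 and 12.29. Rpl5, Rpl23, Rpl24, Rpl26, Rpl31 and Rpl10 had no single-gene probe set. Rpl35a was below the filter on U74Av2, at 3.31 and 3.20 in wild-type and 3.51 and 2.68 in Foxa2 null pools.

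Paralogs with the suffix L gave mixed directions. Rps4l, an autosomal paralog of the X-linked Rps4x, was higher on both array types. It read 9.24 and 9.36 in wild-type and 9.75 and 9.49 in Foxa2 null pools at 98149_s_at on U74Av2, and 11.71 and 11.92 against 12.05 and 11.97 on MOE430v2. The genotypes did not overlap on either. The differences of Rps4l were 0.32 (adjusted p = 0.54 by limma) and 0.20 (adjusted p = 0.537), and 0.26 (SE 0.11, adjusted p = 0.314) with the array types averaged, while the dim U74Av2 probe set 98148_at was at -0.03.

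Rps4x was at -0.06 on U74Av2 and 0.01 on MOE430v2, with overlapping genotypes on both. Rpl39, also X-linked, was at 0.12 and -0.22, and its autosomal paralog Rpl39l at 0.34 and -0.21, so that neither kept a direction between the array types. Rps27l, a p53-inducible paralog of Rps27, was between -0.03 and 0.01 at its 3 MOE430v2 probe sets. Rpl3l, a paralog used in striated muscle, was below the filter at 5.76 and 2.99 in wild-type and 3.69 and 5.96 in Foxa2 null pools. The 49 genes lay on 17 chromosomes, with 2 on chromosome X and 0 on chromosome 8.

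The size of a member's difference followed its signal. The 72 MOE430v2 members above the 90th signal percentile, Rpl22 1416603_at (-0.85) included, had a median of 0.01, and 60 of them (83.3%) were within 0.1 of 0, against 44.7% of all 3153 probe sets that bright. The 22 dimmer members had a median of -0.05, and 4 of them (18.2%) were within 0.1, against 20.5% of all dimmer probe sets. On U74Av2 15 of 22 bright members (68.2%) were within 0.1, against 41.1% of the 870 probe sets that bright, and 4 of 13 dimmer members (30.8%), against 26.0%. The residual SD, which is the spread between pools of a genotype, had a median of 0.06 over bright MOE430v2 members and 0.09 over all bright probe sets, and of 0.20 over the dimmer members and 0.26 over all dimmer probe sets. On U74Av2 the medians were 0.09 and 0.13 for bright and 0.32 and 0.22 for dimmer members and probe sets.

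Suffix letters in probe set names mark sets that depart from the manufacturer's usual design rules, often because probes match more than 1 transcript. On MOE430v2 the 68 members with such a letter had a median of 0.01, with 57 of them (83.8%) within 0.1 of 0. The 26 members without a letter had a median of -0.04, with 7 of them (26.9%) within 0.1, and all 6 members lower at an unadjusted p under 0.05 were among them. On U74Av2 this contrast was not seen, with 5 of 9 members with a letter (55.6%) and 14 of 26 without (53.8%) within 0.1. The members without a letter were not matched for signal, and the share of signal from other loci was not measured. A further 38 U74Av2 and 110 MOE430v2 probe sets name a ribosomal protein gene together with other genes and were not counted as members. The 35 and 106 of them that were tested had medians of -0.09 and 0.02.

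On signals as scaled, the median gap between the wild-type pools over the family was larger than the median difference between genotypes. On MOE430v2 signals as scaled by the authors, wild-type pool 1 was below wild-type pool 2 by a median of 0.28 over the 94 members, and Foxa2 null pool 1 was below pool 2 by 0.12, while the difference between genotypes had a median of 0.00. Wild-type pool 1 was the lower one in 77 of 94. After cyclic loess the wild-type gap had a median of -0.09 (pool 1 minus pool 2) and 72 of 94 were lower in pool 1, and after quantile normalization the gap was -0.02 and 55 of 94 were lower. On U74Av2 as scaled, the wild-type gap was -0.12 with 25 of 35 lower in pool 1, and the Foxa2 null gap was 0.00. After quantile normalization of the U74Av2 arrays the wild-type gap was -0.06 and the difference between genotypes 0.08, so the order of the sizes did not hold there. Over all probe sets tested the wild-type gap was -0.01 on U74Av2 and 0.00 on MOE430v2 before normalization. At like signal part of the MOE430v2 gap was shared. Above the 90th signal percentile it was -0.08 over all 3153 probe sets, with 2043 lower in pool 1, and -0.30 over 72 members, with 68 lower. On U74Av2 it was -0.01 over all 870 probe sets that bright and -0.13 over 22 members.

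**Figure D4:**
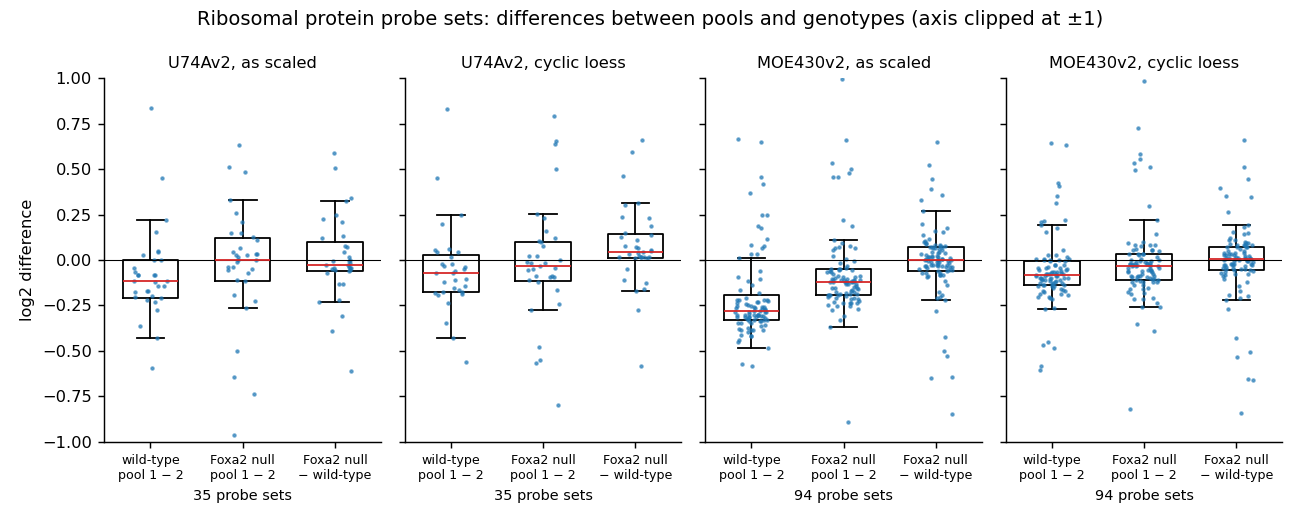
Log2 differences between the pools of a genotype (pool 1 minus pool 2) and between genotypes (Foxa2 null minus wild-type) for the ribosomal protein probe sets tested, on signals as scaled and after cyclic loess, with each probe set a point, boxes at the quartiles, the median in red, whiskers to the last value within 1.5 box lengths, and the axis cut at ±1. The wild-type box for MOE430v2 as scaled sits near -0.28 and moves to -0.09 after cyclic loess, while the box for the difference between genotypes stays at 0 in both.

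The members' share of the summed signal of an array showed the same order. On U74Av2 it was 4.64% and 4.98% in wild-type pools 1 and 2 and 4.73% and 4.74% in Foxa2 null pools 1 and 2. On MOE430v2 it was 4.82% and 5.56% in the wild-type pools against 5.03% and 5.33% in the Foxa2 null pools. On both array types the Foxa2 null pools lay between the wild-type pools, wild-type pool 2, the youngest, was highest, and wild-type pool 1 was lowest. Stage was not measured apart from these pools, and its part in the gap was not tested. Of the 100 brightest MOE430v2 probe sets 27 were members and 35 named a ribosomal protein gene with others, and on U74Av2 the counts were 17 and 22. Any normalization that works by signal level, loess and quantile included, therefore rests on ribosomal protein probe sets in much of its brightest range, and a shift common to the family can be removed in part.

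**Figure D5:**
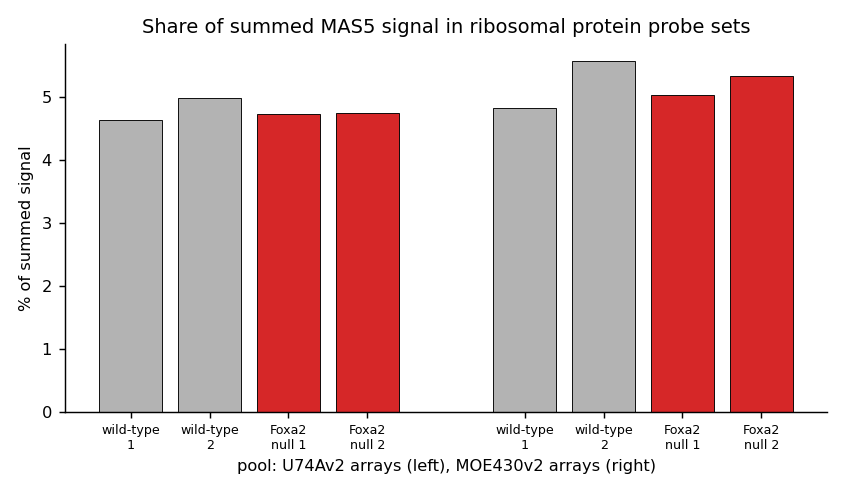
Share of the summed MAS5 signal of each array held by the single-gene ribosomal protein probe sets (percent, bars from 0), for the 4 pools on U74Av2 (left) and MOE430v2 (right), wild-type in grey and Foxa2 null in red. Each bar is 1 array without an error, and the Foxa2 null bars lie between the wild-type bars on both array types.

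Genes that work beside the ribosomal proteins were read from lists of textbook members. Translation factors and related proteins with TOP mRNAs had medians of -0.01 over 12 genes on U74Av2 and 0.04 over 13 genes on MOE430v2. The medians over all genes tested were -0.01 and -0.02. None on the list passed the threshold. Over all genes, 11 of 6410 were called lower and 3 higher on U74Av2, and 40 and 25 of 14180 on MOE430v2. The genotypes did not overlap in 5 lower (41.7%) and 2 higher genes (16.7%) on U74Av2, against 21.1% and 19.2% of all genes. On MOE430v2 the order was the other way, with 2 lower (15.4%) and 6 higher (46.2%), against 23.7% and 21.7%. Eef1a1, which brings aminoacyl-tRNA to the ribosome, was at -0.19 on U74Av2 and 0.06 on MOE430v2, and Eef2, which moves the ribosome along the mRNA, at 0.01 and 0.09. Ribosomal proteins outside the symbol rule had a median of -0.07 over 3 genes on U74Av2 and of -0.07 over 5 genes on MOE430v2, and none passed the threshold. On MOE430v2 3 (60%) were lower without overlap and 0 higher, against 23.7% and 21.7% of all genes, and the lowest was at -0.28. On U74Av2 0 were lower and 0 higher without overlap, against 21.1% and 19.2%. Rps3a1 was at -0.07 on both array types and Fau at 0.01 on MOE430v2.

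Ribosome biogenesis factors had a median of 0.07 over 28 genes on U74Av2 and of 0.08 over 30 genes on MOE430v2, where 14 (46.7%) were higher without overlap of the genotypes and 2 (6.67%) were lower, against 21.7% and 23.7% of all genes tested. On U74Av2 7 (25%) were higher and 3 (10.7%) lower, against 19.2% and 21.1%. Of the 30, 1 passed on MOE430v2, where 25 of all 14180 genes tested were called higher and 40 lower. That was Nip7, a factor in pre-ribosomal RNA processing encoded on chromosome 8. It read 11.35 and 11.22 in wild-type and 12.09 and 12.04 in Foxa2 null pools and rose by 0.78 (SE 0.11; by limma, adjusted p = 0.0231). On U74Av2 Nip7 was at 0.45 (adjusted p = 0.306), again without overlap. Polr1d and Polr1c, subunits shared by RNA polymerases I and III, were at 0.62 (adjusted p = 0.0581 by limma) and 0.58 (adjusted p = 0.0857) on MOE430v2 and did not pass.

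Regulators of ribosome synthesis gave 0 calls among 10 genes on U74Av2 and 11 on MOE430v2, with medians of 0.08 and 0.10. Over all genes tested, 11 of 6410 were called lower and 3 higher on U74Av2, and 40 and 25 of 14180 on MOE430v2. Without overlap of the genotypes, 3 regulators (30%) and 5 (45.5%) were higher, against 19.2% and 21.7% of all genes. Lower ones numbered 1 (10%) and 1 (9.09%), against 21.1% and 23.7%. Differences over the list ran from -1.08 to 0.65 and from -0.13 to 1.46. The -1.08 was the largest change of the list on U74Av2, where 3 of the 10 genes were below 0, and it did not pass the threshold. The 1.46 was that of Max, at 0.23 on U74Av2 and higher without overlap on both. On MOE430v2 Max read 7.63 and 7.17 in wild-type and 9.70 and 8.02 in Foxa2 null pools (adjusted p = 0.266 by limma), so its Foxa2 null pools lay far apart. Myc, a transcription factor that drives ribosome production, was at 0.41 and 0.26 with overlapping genotypes, and Mycn was at 0.02 and -0.10. Eif4ebp1, the translation repressor that mTOR inactivates, was higher without overlap on both array types, by 0.65 and 0.41, with adjusted p = 0.165 and 0.177 by limma. Proteins of the mitochondrial ribosome, which are encoded by a separate gene family, had a median of -0.01 over 60 genes on U74Av2 and of -0.12 over 76 genes on MOE430v2, where 30 (39.5%) were lower and 13 (17.1%) higher without overlap, against 23.7% and 21.7% of all genes, and 0 passed. On U74Av2 the order was the other way, with 10 (16.7%) lower and 17 (28.3%) higher, against 21.1% and 19.2%. The residual SD had a median of 0.11 over the mitochondrial family on MOE430v2 and of 0.06 over the cytosolic genes. Their median log2 signals were 10.89 and 14.85, and the families were not matched for signal.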

How the data were processed

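The authors deposited MAS5 signals (linear intensity of each probe set), which they had scaled to a common target. The mean after trimming 2% at each end was 150.1 on each U74Av2 array and 500.0 on each MOE430v2 array. By the supplementary methods, U74Av2 arrays were hybridized on separate days with both genotypes on each, and MOE430v2 arrays on a single day, but the pool numbers of each day are not given. Groups were taken from the sample labels. Analysis was on log2 signals, in R 4.3.3 and the package data.table, version 1.17.8. The 4 values of 0 on U74Av2 were set to the smallest signal above 0. U74Av2 values were used as scaled, and MOE430v2 values, which the authors' methods loess-normalized before testing, were normalized by cyclic loess. Controls were dropped, as were the dimmest 30% by mean log2 signal over the 4 arrays of a type. Foxa2 null was compared with wild-type by limma 3.58.1 (lmFit, then eBayes with its variance trend on signal, two-sided). P-values were adjusted by Benjamini-Hochberg over all probe sets tested. Intervals are 95% intervals of the moderated fit. For genes on both array types, log2 values of the brightest probe set per gene were centred within an array type and averaged per extract. Exact permutation of 4 pools reaches no p below 0.333. The study describes the pools of a genotype as biological replicates, and how far they are independent beyond that was not examined. The p-values set the difference between genotypes against the spread between these pools, as moderated over all probe sets. The number of arrays limits the precision.

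The members and the gene lists were chosen with earlier results of these data known, so no list was tested as such, and counts stand beside those over all features. Genes are named by a rule: members with a known role, members past the threshold, the 5 largest changes without overlap in each direction per array type, the 3 with the largest residual SD and the 3 genes whose probe sets differ most. A gene is given by its brightest probe set unless another is named. Values named beyond the rule, among them the untested Rps6 and Rpl35a probe sets, were chosen after they were seen. Alternatives were normalization, filter, offset, variance trend, a replicate block and leaving out each pool. The steps were tested on simulated data.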

Additional observations from a re-analysis of the deposited data

How the results depend on the processing

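With 2 pools per genotype, counts of calls moved with the pools and the model. A comparison of 2 pools with 1 separates more easily than 2 with 2, so over the same probe sets counts without overlap cannot fall when a pool is left out. On U74Av2 the 24 probe sets called over all genes became 3 without a filter, 38 with the lowest 50% left out, 0 without the intensity trend and 15 to 38 when 1 pool was left out. On MOE430v2 the 137 became 43, 325, 0 and 32 to 239, and 241 with an offset before log2. Members lower without overlap on U74Av2 (5) numbered 2 after quantile normalization, 3 after median centring and 9 without a filter, and 8 to 19 with a pool left out. Those higher (6) numbered 10 without a filter, 2 above the 90th signal percentile (chosen after seeing the data) and 8 to 17 with a pool left out. On MOE430v2 the members higher without overlap (19) numbered 6 on signals as scaled and 6 after median centring, and 27 to 52 with a pool left out, and those lower (12) 16 to 45. The members called lower on MOE430v2 (1) were 0 without the trend and 0 to 2 with a pool left out, the added one being Rpl37a 1416218_x_at without Foxa2 null pool 1. The median over MOE430v2 members (0.01) ran from -0.033, with wild-type pool 1 left out, to 0.060, with wild-type pool 2 left out. The median over MOE430v2 genes (0.00) was -0.046 with suffix-letter probe sets left out. The averaged array types gave 0 calls throughout.

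Replicate numbers share only a number, since no source ties them to a batch. With the replicate number as a block, limma called 292 of 8695 probe sets on U74Av2 and 1643 of 31526 on MOE430v2. Of the 94 ribosomal protein probe sets on MOE430v2 it called 6, a share near that over all probe sets. All 6 were lower (Rpl22, Rps6, Rpl37a 1416218_x_at, Rps25, Rps24 1455195_at and Rpl14). The deviations of same-numbered pools correlated at 0.11 on U74Av2 and 0.09 on MOE430v2 across all probe sets. Over ribosomal protein probe sets alone these were -0.01 and 0.34, and 0.52 over the 22 above the 90th signal percentile on U74Av2.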
